A study of Mus musculus with 2 samples.

Results

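The genes described here are *Adamts18*, *Fam171b*, *Cntnap2*, *Zfp503*, *Npas3*, *Samd5*, *Palmd* and *Enc1*, which are 8 of the 31053 genes listed in the count tables. They were matched by gene symbol, and all 8 had UMIs (unique molecular identifiers, each marking 1 captured transcript) in both libraries. The 8 genes were chosen by their higher level in mutant progenitor cells of these same libraries, so the difference between the genotypes in such cells is a description of how they were picked and not a result about them. What the choice did not fix is where else the genes were detected and how far they differed in cell types other than progenitors. Groups of progenitors other than the naïve-like cells, such as neurogenic progenitors, may fall under the same choice. Their ratios are descriptions too. Detection in the same cell as *Fabp7*, *Six3* or each other is described too. It was not free of the choice, since *Fabp7* and *Six3* also differed between the libraries in naïve-like cells.

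Single-cell RNA-seq had been performed on mouse eyecups, which held retina, lens and blood, at E13.5. One library came from a control embryo (Six3+/-;Six6+/-, so a carrier of 1 null allele of each gene and not a wild type) and 1 from a littermate lacking Six6 in the germline and carrying floxed Six3 with a-Cre (Six3F/F;Six6-/-;a-Cre, called DKO). The a-Cre transgene acts in the peripheral retina and not in the central retina, so DKO eyecups also hold retinal cells in which Six3 was not deleted. With 1 library per genotype there was no test between genotypes, and every 95% interval below covers counting error only.

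As background, Six3 and Six6 are related homeodomain transcription factors needed for the eye field and for retinal progenitor cells. Naïve retinal progenitor cells divide and can give rise to every retinal cell type, and neurogenic progenitors are committed to produce neurons. The 8 genes belong to no single pathway. Adamts18 is a secreted metalloprotease of the extracellular matrix, Fam171b a transmembrane protein, and Cntnap2 a neurexin-family adhesion protein of axons. Zfp503 is a zinc finger repressor of the NET family and Npas3 a bHLH-PAS transcription factor. Samd5 carries a sterile alpha motif, Palmd belongs to the paralemmins, and Enc1 is an actin-binding kelch protein of the nervous system.

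The genes lie on 8 different chromosomes of GRCm38 (mm10), in GENCODE vM21 coordinates. *Adamts18* spans chr8:113697126-113848738 on the minus strand and *Samd5* spans chr10:9622936-9675208 on the minus strand. *Fam171b* spans chr2:83812636-83883486 on the plus strand and *Zfp503* spans chr14:21983959-21989601 on the minus strand. *Npas3* spans chr12:53248677-54072175 and *Cntnap2* spans chr6:45059357-47304213, both on the plus strand. *Palmd* spans chr3:116918258-116968987 on the minus strand and *Enc1* spans chr13:97241105-97253034 on the plus strand. RefSeq promoter windows, from 250 bases before to 50 after a transcription start, were found for 5 of the 8 genes. The 4 windows below belong to the pair of genes with the largest ratios in naïve-like cells and to the pair that differed most between cells with and without *Fabp7*, the groups that the results below turn on. Capitals mark TAAT, a homeodomain core, or TGATAC, a core reported for sine oculis-type homeodomain proteins, searched on both strands. Neither motif contains the other.
*Adamts18*, GRCm38.p6 chr8:113848790-113849089, minus strand: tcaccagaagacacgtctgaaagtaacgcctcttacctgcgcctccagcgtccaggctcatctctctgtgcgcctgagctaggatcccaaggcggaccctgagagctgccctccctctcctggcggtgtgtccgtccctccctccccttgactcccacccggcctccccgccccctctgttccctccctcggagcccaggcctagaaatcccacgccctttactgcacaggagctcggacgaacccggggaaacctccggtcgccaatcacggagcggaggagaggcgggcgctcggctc
*Samd5*, GRCm38.p6 chr10:9675159-9675458, minus strand: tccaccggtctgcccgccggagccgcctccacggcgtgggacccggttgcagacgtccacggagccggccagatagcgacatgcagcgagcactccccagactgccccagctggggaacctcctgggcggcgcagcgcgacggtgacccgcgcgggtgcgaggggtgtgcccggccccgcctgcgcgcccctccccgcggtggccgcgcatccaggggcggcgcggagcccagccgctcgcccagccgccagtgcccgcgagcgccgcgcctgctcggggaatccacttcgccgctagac
*Npas3*, GRCm38.p6 chr12:53248182-53248481, plus strand: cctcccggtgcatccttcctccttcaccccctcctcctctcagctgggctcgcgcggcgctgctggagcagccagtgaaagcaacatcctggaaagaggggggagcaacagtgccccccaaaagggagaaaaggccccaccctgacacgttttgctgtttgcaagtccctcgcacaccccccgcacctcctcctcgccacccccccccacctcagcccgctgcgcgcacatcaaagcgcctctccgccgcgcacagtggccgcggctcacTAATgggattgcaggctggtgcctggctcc
*Cntnap2*, GRCm38.p6 chr6:45059811-45060110, plus strand: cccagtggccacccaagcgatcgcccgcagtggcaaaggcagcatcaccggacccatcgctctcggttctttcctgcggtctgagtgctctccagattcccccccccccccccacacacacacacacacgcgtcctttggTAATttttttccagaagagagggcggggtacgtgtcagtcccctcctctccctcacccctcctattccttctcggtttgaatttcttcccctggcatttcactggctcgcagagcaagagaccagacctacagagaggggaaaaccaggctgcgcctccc

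TAAT was in 3 of the 6 windows of these genes (*Cntnap2* has 2 windows), against 58.0% of all 32851 promoter windows of that length. TGATAC was in 0 of the 6, against 5.5% of all. The *Adamts18* and *Samd5* windows, with 66.0% and 77.3% G and C, held neither motif. A match or its absence describes these letters in this window only.

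There were 10315 control and 12672 DKO cells as deposited, with 85589515 and 85173276 UMIs in all. After filtering, 9822 and 12146 cells were kept, with medians of 7620 and 5879 UMIs per cell, and 20 cell barcodes occurred in both. Clusters were built without these 8 genes and named from marker genes. Naïve-like cells were clusters 0 and 5 (2093 control and 2102 DKO cells), led by histone genes of S phase and by genes of mitosis. Cluster 1 (1174 and 1232 cells) had all of the naïve progenitor markers above their level in other cells, but its leading genes held *Kdr*, an endothelium marker, and no naïve marker, so it was left unnamed and is given beside clusters 0 and 5. In naïve-like cells *Six6* fell from 362 to 47.7 CPM (UMIs per 1000000) and *Six3* from 316 to 234 CPM.

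Within naïve-like cells, 6 of the 8 genes passed a filter of 100 UMIs and 50 CPM in either library, all 6 were over 2-fold higher in DKO, and *Palmd* and *Enc1* did not pass it. Over 2-fold higher in DKO were 0.968% of the 3512 genes that passed this filter, and since the 8 genes were chosen by this contrast nothing is read from the difference. The median log2 ratio of the 8 genes was 1.61, and that of all genes that passed was 0.04.

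Among the surface and matrix genes, *Fam171b* was at 47.3 CPM (44.6 to 50.1) in control and 181 CPM (176 to 187) in DKO naïve-like cells. *Adamts18* was at 7.64 CPM (6.58 to 8.82) and 51.9 CPM (48.9 to 55.0), a log2 ratio of 2.76 (2.54 to 3.00). *Cntnap2* was at 33.2 CPM (30.9 to 35.5) and 96.1 CPM (92.0 to 100.3). In each of these genes the 2 intervals lay apart. The ranks among the 3512 genes were 4 for *Adamts18*, 11 for *Fam171b* and 16 for *Cntnap2*.

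Of the 2 transcription regulators, *Zfp503* ranked between *Fam171b* and *Cntnap2*, and *Npas3* below all of them. *Zfp503* was at 22.4 CPM (20.5 to 24.3) in control and 71.9 CPM (68.3 to 75.5) in DKO cells. *Npas3* was at 21.4 CPM (19.6 to 23.3) and 57.1 CPM (54.0 to 60.4), a log2 ratio of 1.42 (1.27 to 1.57). The difference in *Npas3* was larger in cluster 5, at 20.8 and 80.0 CPM, than in cluster 0, at 21.6 and 37.6 CPM, and the intervals of the 2 ratios did not overlap.

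Of the remaining genes, *Samd5* was at 9.69 CPM (8.49 to 11) and 59.5 CPM (56.3 to 62.9), a log2 ratio of 2.62 (2.42 to 2.83). *Enc1* was at 13.2 CPM (11.8 to 14.7) and 24.1 CPM (22.0 to 26.2), a log2 ratio of 0.86 (0.66 to 1.07), so it lay under 2-fold. *Palmd* had only 8 control and 16 DKO UMIs in these cells, and its interval (-0.14 to 2.60) included 0. Although it is listed with genes raised in mutant progenitors, *Palmd* was thus hardly detected in naïve-like cells.

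**Figure D1:**
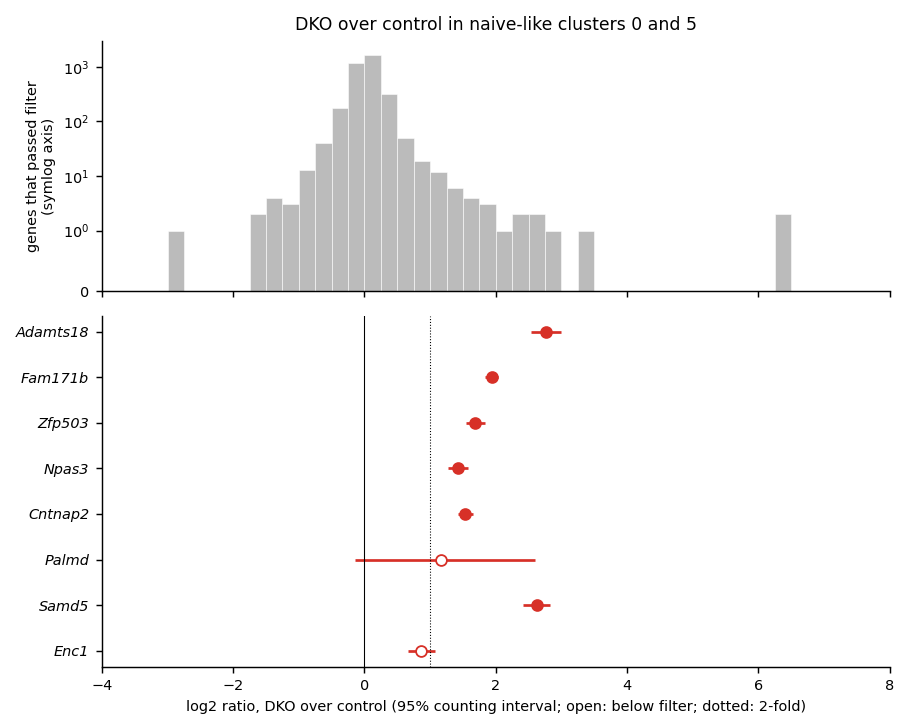
The upper panel counts genes that passed the filter by log2 ratio of DKO over control in naïve-like clusters 0 and 5, on a symmetric log axis; the lower panel gives each of the 8 genes with its 95% counting interval. Filled points (6 genes) passed the filter and lie between 1.42 and 2.76, and the open points, *Palmd* and *Enc1*, did not pass it.

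Cluster 1, taken by number, gave values near those of naïve-like cells. Of the 8 genes 3 passed the filter there and all 3 were over 2-fold higher in DKO, as were 1.28% of the 3449 genes that passed. All 3 passed by their DKO level alone, so this count is partly set by the filter and nothing is read from it. The median log2 ratio of the 8 genes, passing or not, was 1.69. Control cells of the clusters differed too. *Adamts18* was at 21.5 CPM in cluster 1 against 7.64 CPM in clusters 0 and 5, and its ratio was smaller (1.75). *Zfp503* went the other way in control cells, with 8.0 CPM in cluster 1 against 22.4 CPM, and was at 43.1 CPM in cluster 1 DKO cells. For clusters 0, 1 and 5 combined 6 of the 8 genes passed the filter and all 6 were over 2-fold higher, as were 0.971% of the 3502 genes that passed, and the median of the 8 was 1.63. Each of these 6 also passed by its DKO level alone.

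Cell cycle phase was assigned after each cell had been thinned to 2000 UMIs. In S phase (806 control and 858 DKO cells) the log2 ratios ran from 0.21 for *Enc1* to 2.70 for *Adamts18*, and in G2 and M phase (1204 and 1224 cells) from 0.74 for *Enc1* to 2.82 for *Adamts18*. *Npas3* differed by 1.13 (0.55 to 1.74) in S and by 2.05 (1.54 to 2.59) in G2 and M phase, with overlapping intervals. G1 held 76 control and 10 DKO cells, too few to read.

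In cluster 2 (1067 control and 1220 DKO cells), which had markers of both the ciliary margin and the pigment epithelium and therefore stayed unnamed, *Samd5* stood apart. It was at 17.3 CPM (14.8 to 20.2) in control and 198 CPM (189.5 to 207) in DKO cells, and its log2 ratio was 3.51 (3.29 to 3.75). *Fam171b* was at 65.3 and 296 CPM and *Zfp503* at 37.5 and 122 CPM, and the DKO levels of both genes were their highest in any cluster or class. *Palmd*, with 15 and 26 UMIs, did not differ beyond its interval (-0.24 to 1.75). Of the 8 genes 4 passed the filter in this cluster and all 4 were over 2-fold higher, as were 1.81% of the 3534 genes that passed. All but *Fam171b* passed by their DKO level alone, so this count is partly set by the filter and nothing is read from it.

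Neurogenic-like cells were clusters 4 and 8 (1393 control and 1714 DKO cells), and here *Palmd* joined the genes with the largest ratios. *Adamts18* was at 2.53 and 24.7 CPM, a ratio of 3.29 (2.70 to 3.93), and *Samd5* at 1.17 and 10.5 CPM, a ratio of 3.16 (2.29 to 4.17), although both were lower in these cells than in naïve-like cells. *Palmd* was at 6.03 CPM in control and 51.6 CPM in DKO cells, so that log2 of DKO over control was 3.1 (2.71 to 3.50). The DKO level came mostly from cluster 4, where it was 76.6 CPM (69.7 to 83.9), against 7.74 CPM (5.06 to 11.3) in cluster 8. *Enc1* was at 28.4 and 67.3 CPM, a log2 ratio of 1.24 (1.04 to 1.45), and so higher in both libraries than in naïve-like cells. *Fam171b*, *Zfp503* and *Cntnap2* were lower than in naïve-like cells in both libraries, with *Cntnap2* at 3.79 and 14.4 CPM. *Npas3* was the smallest ratio, 0.87 (0.52 to 1.22), and in cluster 8 its interval included 0 (-0.38 to 0.65). Of the 8 genes 3 passed the filter, *Fam171b*, *Palmd* and *Enc1*, and all 3 were over 2-fold higher, as were 1.58% of the 3540 genes that passed. All 3 passed by their DKO level alone, so this count is partly set by the filter and nothing is read from it. The median of the 8, passing or not, was 1.90. Neurogenic-like cells are progenitors too, so these ratios may not be free of the choice of the genes.

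In ganglion-like cells, clusters 6 and 7 (969 control and 1971 DKO cells, with *Elavl4* and *Isl1*, and *Sncg* and *Gap43*, among their leading genes), 2 of the 8 genes passed the filter, and 1 of these, *Cntnap2*, was over 2-fold higher in DKO, as were 0.814% of the 3564 genes that passed. It was at 26.1 and 83.1 CPM, a log2 ratio of 1.67 (1.46 to 1.89), and so passed by its DKO level alone. *Fam171b* had its highest control level of these retinal groups here, 119 CPM, and a ratio of only 0.52 (0.42 to 0.63). The 2 clusters differed. In cluster 6 *Palmd* was at 1.06 and 17.6 CPM and *Samd5* at 1.91 and 17.9 CPM, whereas in cluster 7 *Palmd* was at 1.71 and 1.7 CPM. *Zfp503* in cluster 7 was at 20.5 and 21.0 CPM, with a ratio of 0.03 (-0.38 to 0.45). *Enc1* differed in both clusters, by 1.20 (0.81 to 1.60) and by 1.13 (0.79 to 1.49). Cluster 6, led by *Ccer2* and *Igfbpl1*, held 606 control and 1020 DKO cells. With the libraries merged without integration, the ganglion-like cluster led by these genes held 507 and 311. A merged cluster with *Lhx9*, *Rspo3* and *Tbr1* among its leading genes held 1547 DKO cells, against 804 in cluster 10 below. The part of such cells in the cluster 6 levels was not tested.

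Cluster 10, led by *Rspo3*, *Tbr1*, *Lhx9* and *Eomes*, held 804 DKO cells and 1 control cell, so only DKO levels can be given. *Enc1* was at 263 CPM (247 to 279), *Samd5* at 204 CPM (189.9 to 219) and *Cntnap2* at 187 CPM (174 to 201), in each case the highest level of that gene in any cluster or class, although the *Samd5* interval overlapped that of DKO cells in cluster 2. *Palmd* was at 51.2 CPM (44.3 to 58.9). *Adamts18* was at 6.76 CPM (4.42 to 9.91), well under its level in DKO naïve-like cells. Of the thinned cells 14.1% (11.8% to 16.8%) had UMIs of 3 or more of the 8 genes. In DKO cells of cluster 2 the share was 11.7% (9.91% to 13.6%), with an overlapping interval. It was 5.78% (4.82% to 6.87%) of DKO and 0.192% (0.0523% to 0.490%) of control naïve-like cells, the contrast by which the genes were chosen.

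Outside the retina, *Adamts18* and *Samd5* were high in lens-like cells of both genotypes. In lens-like cluster 13 *Adamts18* was at 131 CPM (119.9 to 142) in control and 146 CPM (133 to 159.6) in DKO cells, and its ratio of 0.16 (-0.02 to 0.34) included 0. *Samd5* was at 111 CPM (101 to 121) and 62.0 CPM (53.7 to 71.2) there, a log2 ratio of -0.84 (-1.09 to -0.59), lower in DKO. Lens-like cluster 13 had a median of 18235 UMIs per cell in control and 10124 in DKO, and the part of this in the *Samd5* value was not tested. In lens-like cluster 14, where cells had medians of 1730 and 1602 UMIs, *Samd5* went the other way, with 19 and 23 UMIs, a ratio of 1.01 (0.06 to 1.96). *Fam171b* was at 9.21 and 50.2 CPM there, *Zfp503* at 3.95 and 32.7 CPM and *Cntnap2* at 7.89 and 34.9 CPM. The part of free RNA from other cells in the *Samd5* value was not tested. In amacrine- or horizontal-like cluster 15 *Enc1* was at 74.7 and 47.4 CPM, from 56 and 40 UMIs, a ratio of -0.66 (-1.28 to -0.05), and *Zfp503* was at 58.7 and 101 CPM. In photoreceptor-like cluster 18, *Enc1* was at 81.8 and 123 CPM, and its interval included 0 (-0.03 to 1.22).

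**Figure D2:**
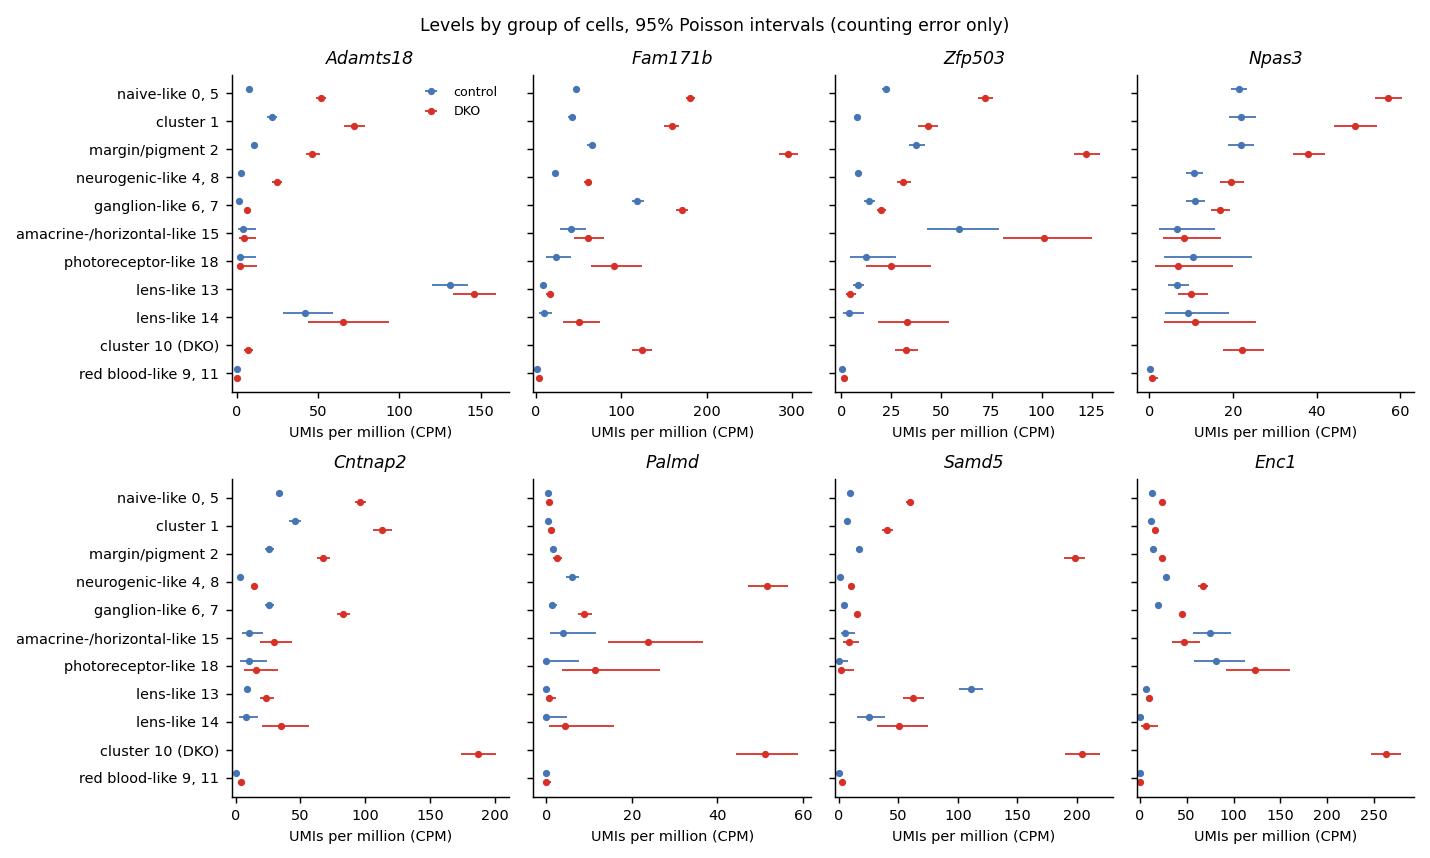
Each panel gives 1 gene, with its level in UMIs per 1000000 on the horizontal axis for 11 groups of cells in control (blue) and DKO (red); points are pooled levels of 1 library and lines are 95% Poisson intervals. *Adamts18* peaks in lens-like cluster 13 in both libraries, *Enc1* in DKO cluster 10 at 263 CPM, and *Palmd* in DKO neurogenic-like cells and cluster 10.

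Red blood-like cells, assumed to lack these genes, were taken as a gauge of free RNA. Doublets were kept, and their part in these shares was not tested. With each cell thinned to 2000 UMIs, 0.377% of 1061 control and 1.86% of 538 DKO red blood-like cells had a UMI of any of the 8 genes, whereas 26.0% of control and 58.5% of DKO naïve-like cells did. Medians before thinning were 8453 and 6323 UMIs in red blood-like cells and 10390 and 8981 UMIs in naïve-like cells. The highest share of a single gene in red blood-like cells was 0.929% (0.302% to 2.16%), for *Cntnap2* in DKO. *Palmd* was detected in 0.0956% (0.0116% to 0.345%) of DKO naïve-like cells. In DKO red blood-like cells its share was 0 (0 to 0.683%), with an overlapping interval. The unthinned shares in naïve-like cells were 38.7% and 68.9% for *Fam171b* and 7.79% and 33.0% for *Adamts18*.

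Co-detection was examined with *Fabp7*, which encodes a brain lipid-binding protein of neural stem and glial cells, and with *Six3*. *Fabp7* was at 1.89 CPM in control and 167 CPM in DKO naïve-like cells. After thinning, 247 of 2092 DKO cells (11.8%) had a *Fabp7* UMI, against 4 of 2086 control cells, so the split could be made in the DKO library only. *Npas3* was detected in 24.3% of DKO cells with a *Fabp7* UMI and in 8.73% of those without, a log2 ratio of levels of 1.63 (1.22 to 2.03). *Cntnap2* was detected in 25.1% and 12.8%, a ratio of 1.05 (0.67 to 1.41). These were the 2 of 7 genes with a ratio over 2-fold, where 3.00% of the 9646 genes with at least 20 UMIs on either side were. *Fam171b* was detected in 32.8% and 26.4%, a ratio of 0.40 (0.09 to 0.69), and *Enc1* in 6.48% and 3.58%, a ratio of 0.92 (0.06 to 1.71). The intervals of *Adamts18* (-1.31 to 0.13), *Zfp503* (-1.08 to 0.15) and *Samd5* (-1.04 to 0.42) included 0. *Palmd* had too few UMIs for a ratio. The median over the 7 genes was 0.40, against -0.04 over all genes compared. As *Fabp7* differed between the libraries, this split was not free of the choice. Nothing is read from the share of 3.00% or from these medians. The 2 sides came from different clusters, since 214 of the 247 cells with *Fabp7* were in cluster 5 and 1090 of the 1845 without were in cluster 0. Within cluster 5 *Npas3* was detected in 26.2% and 10.7% (1.43, from 0.95 to 1.90), and *Cntnap2* in 25.7% and 15.9%, under 2-fold (0.66, from 0.22 to 1.09). *Adamts18* was lower in the *Fabp7* cells of cluster 5 (-0.98, from -1.83 to -0.21), and the median over 7 genes was 0.31. Within cluster 0, which held 33 cells with *Fabp7*, the median was 0.03, *Cntnap2* differed by 1.65 (0.70 to 2.47), and the interval of *Npas3* included 0 (-0.73 to 2.20).

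In cluster 1 the same 2 genes had the largest ratios. *Cntnap2* was detected in 34.8% of its 207 DKO cells with a *Fabp7* UMI and in 15.1% of those without, and *Npas3* in 16.9% and 8.60%. *Fam171b* was detected in 35.7% and 21.6%, a larger difference than in clusters 0 and 5, and the median over 7 genes was 0.78. In the split by *Six3*, *Samd5* was detected in 8.30% of cluster 1 DKO cells without and 1.75% of those with a *Six3* UMI, a log2 ratio of 2.43 (1.32 to 3.79).

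For *Six3*, 1384 of the thinned DKO naïve-like cells had no *Six3* UMI and 708 had 1 or more. Since 56.7% of control cells also had none, a cell without a UMI is not a cell without *Six3*. Nor does a *Six3* UMI show that the gene was intact, as *Six6*, deleted in the germline, was still at 47.7 CPM in DKO naïve-like cells. *Samd5* was detected in 10.1% of DKO cells without and 4.10% of those with a *Six3* UMI, a log2 ratio of levels of 1.45 (0.88 to 2.06). It was the only 1 of 7 genes over 2-fold, against 1.76% of the 9029 genes compared. As *Six3* differed between the libraries too, this split was not free of the choice either, and nothing is read from that share. Marker lists moved with this split: pigment epithelium markers were at 91.4 CPM without and 38.1 CPM with a *Six3* UMI, ciliary margin markers at 667 and 416 CPM, and naïve progenitor markers at 3043 and 5623 CPM. Their part in the *Samd5* value was not tested. *Npas3* differed by 0.72 (0.29 to 1.17), *Cntnap2* by 0.62 (0.27 to 0.98), *Zfp503* by 0.47 (0.09 to 0.86) and *Fam171b* by 0.46 (0.22 to 0.71). *Adamts18* (-0.07 to 0.79) and *Enc1* (-0.79 to 0.58) had intervals that included 0. In control cells the same split gave a median of -0.03 over 7 genes, from -0.35 to 0.16, and every interval included 0.

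**Figure D3:**
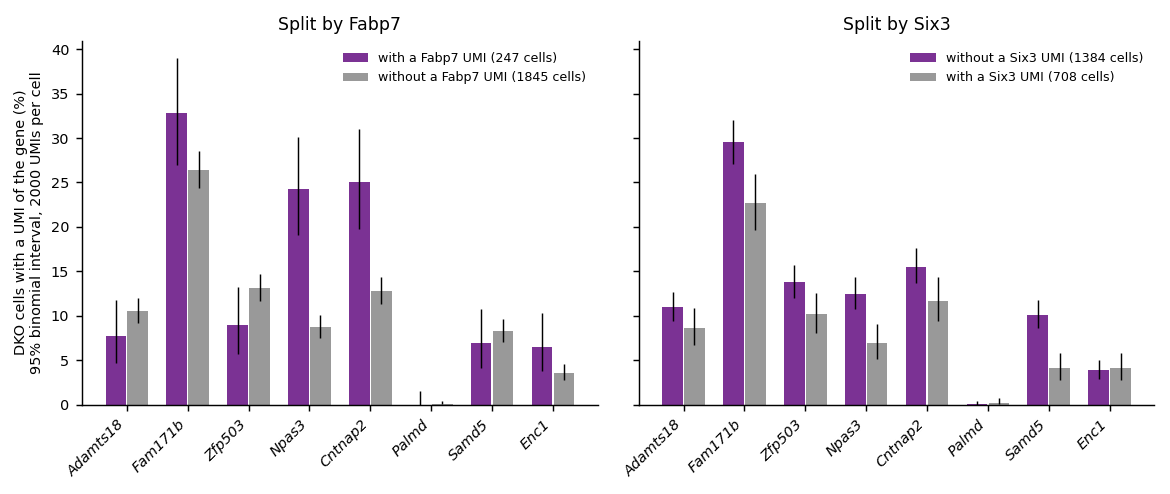
Bars give the percentage of thinned DKO naïve-like cells with a UMI of each gene, split by detection of *Fabp7* (left) and *Six3* (right), with 95% binomial intervals. *Npas3* and *Cntnap2* stand out in the left panel, at 24.3% and 25.1% of cells with *Fabp7*, and *Samd5* in the right panel, at 10.1% of cells without *Six3*.

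Levels by the number of *Six3* UMIs per cell are shown in the plot of *Six3* counts. In DKO cells *Samd5* was at 57.8, 27.5 and 15.3 CPM with 0, 1 and 2 *Six3* UMIs and was not detected in the 91 cells with 3 or more, where the interval reached 20.3 CPM. *Fam171b* was at 190, 157, 107 and 93.4 CPM in the same order. *Adamts18* was at 58.5, 45.2, 52.1 and 38.5 CPM, and these 4 intervals overlapped. In DKO cells with 3 or more *Six3* UMIs, *Adamts18* was still above the 11 CPM of control cells with as many, although the intervals overlapped there.

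**Figure D4:**
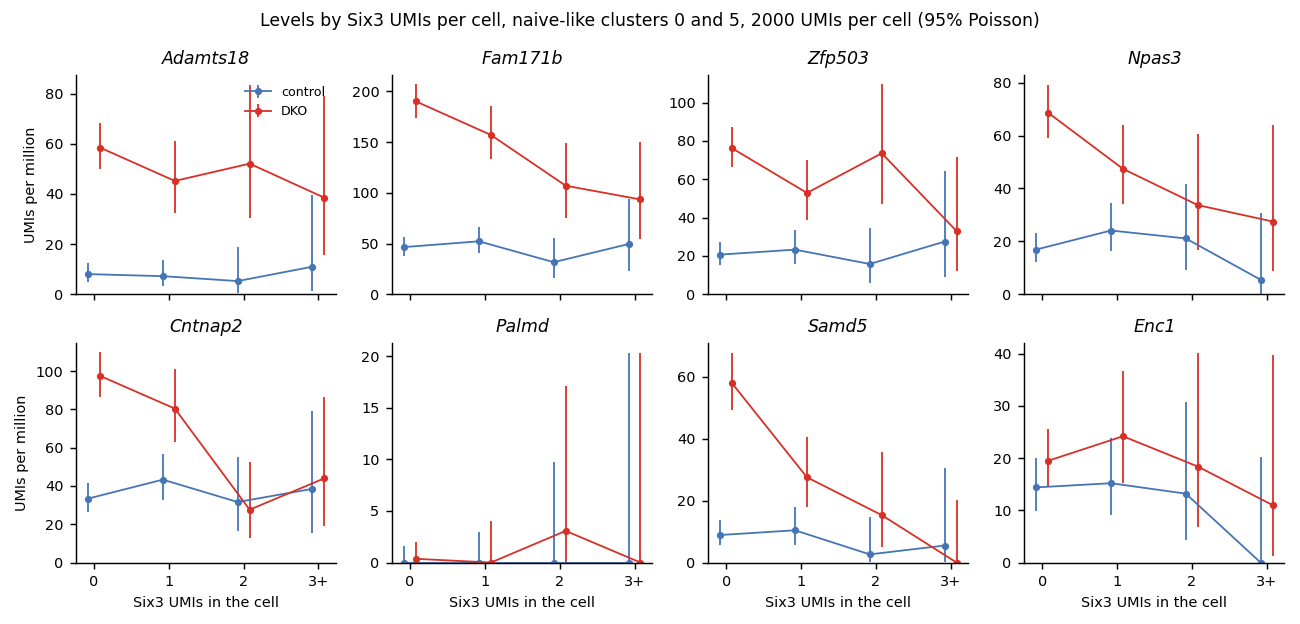
Each panel gives the level of 1 gene in UMIs per 1000000 against the number of *Six3* UMIs in the cell, for control (blue) and DKO (red) naïve-like cells thinned to 2000 UMIs, with 95% Poisson intervals. *Samd5* in DKO cells goes from 57.8 CPM without a *Six3* UMI to 15.3 CPM with 2, while the control points stay between 2.63 and 10.4 CPM.

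The 2 splits were linked, as *Six3* was detected in 16.6% (12.2% to 21.8%) of DKO cells with *Fabp7* and in 36.2% (34% to 38.4%) of those without. Among cells without *Fabp7*, *Samd5* was at 61.1 CPM in the 1178 cells without and 20.2 CPM in the 667 cells with a *Six3* UMI. Among cells without *Six3*, *Samd5* was at 38.8 CPM in the 206 cells with *Fabp7* and at 61.1 CPM in those without, with overlapping intervals. *Npas3* was at 195 CPM (112 to 317) in the 41 cells with both *Fabp7* and *Six3*, at 138 CPM (105 to 179) in cells with *Fabp7* alone, at 56.5 CPM in cells with neither and at 32.2 CPM in cells with *Six3* alone. Its level was thus lower with *Six3* among cells without *Fabp7*, and the intervals overlapped among cells with it.

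DKO cells were also clustered on their own. Of the 4 subclusters with 50 or more naïve-like cells, subcluster 3 (786 cells) had *Six3* at 121 CPM, under 50% of the control level, and *Fabp7* at 379.8 CPM. It had the highest *Npas3* and *Cntnap2*, 88.4 and 147 CPM. Subcluster 9 (502 cells) had *Six3* at 172 CPM, little *Fabp7* and the highest *Samd5*, *Zfp503* and *Fam171b*, at 124, 104 and 221 CPM. Subcluster 8 (580 cells), with *Six3* at 535 CPM, had the lowest *Samd5*, at 5.96 CPM, beside 9.69 CPM in control cells. *Fam171b* and *Adamts18* were nonetheless at 106 and 42.4 CPM in subcluster 8, above the control levels of 47.3 and 7.64 CPM. The order of the subclusters thus differed between the genes.

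**Figure D5:**
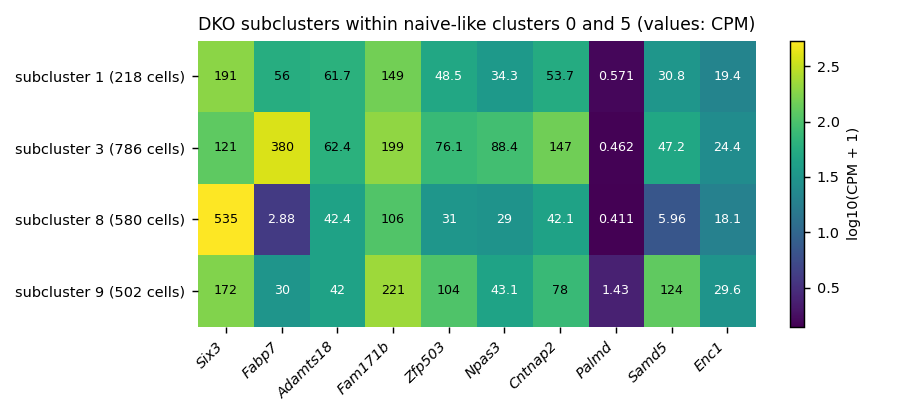
Rows are 4 DKO subclusters within naïve-like clusters 0 and 5, columns are genes, and colour gives log10 of UMIs per 1000000 plus 1, with the value in each cell. *Npas3* and *Cntnap2* are highest in subcluster 3, where *Fabp7* is at 379.8 CPM, and *Samd5* and *Zfp503* in subcluster 9.

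Cells of whole subclusters with low *Six3* (800 naïve-like cells) were compared with the other 1302 DKO cells. *Cntnap2* was at 147 and 61.2 CPM and *Npas3* at 87.2 and 36.6 CPM, the largest ratios of the 8 genes. *Fabp7* also differed, at 377 and 23.4 CPM, so this comparison overlaps with the split by *Fabp7*. *Samd5* was lower in the low-*Six3* cells, at 48.8 against 66.9 CPM. The other cells included subcluster 9, which lay just above the limit for low *Six3* and had the highest *Samd5*, and subcluster 8, with the lowest. The other DKO cells were a mixture, with *Six3* at 535 CPM in subcluster 8 but 172 and 191 CPM in subclusters 9 and 1, so their pooled *Six3* level does not describe them. Their median log2 ratio over control was 1.56 for the 8 genes. All of these cells lacked functional *Six6* by genotype.

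Pairs of the 8 genes were compared with the product of their separate shares. In DKO naïve-like cells, 21 pairs were expected in 5 or more cells, and the observed number over the expected ran from 0.873 to 1.69, with a median of 1.20. The highest were *Zfp503* with *Samd5* (36 cells against 21.2) and *Adamts18* with *Samd5* (28 against 17.2). *Zfp503* with *Cntnap2* was at 0.961. In control cells 6 pairs could be read, from 0.690 to 1.21.

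Few relatives of the 8 genes were high enough to compare. Of 70 listed relatives (ADAMTS proteases, FAM171, NET zinc fingers, bHLH-PAS factors, contactin-associated proteins and partners, paralemmins, SAM domain and kelch-BTB proteins), 4 passed the filter in naïve-like cells and 0 of these lay past 2-fold in either direction. *Hif1a* was at 134 and 148 CPM, *Clock* at 53.7 and 46.7 CPM, *Samd4b* at 77.1 and 72.4 CPM and *Klhl9* at 51.4 and 53.7 CPM. The filter left the other relatives out, so nothing is read from them.

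Over 37 groups (each cluster in each library, with at least 50 cells), Pearson's r of log2(CPM + 10) described which of 6479 other genes varied most like each gene. These groups share 2 libraries and their depth, so r is a description only. For *Adamts18* they were *Col4a6*, *Col4a5* and *Slc7a2* (0.88, 0.87 and 0.87), and for *Fam171b* *Nr2f2*, *Dclk1* and *A730017C20Rik* (0.92, 0.91 and 0.89). *Zfp503* had *Nr2f2*, *Zswim5* and *A730017C20Rik* (0.87, 0.85 and 0.83), and *Npas3* had *Fhl1*, *Ptprz1* and *Ephb1* (0.88, 0.88 and 0.87). *Cntnap2* had *Limk2*, *Ephb1* and *Fez1* (0.83 each). *Palmd* had *Eomes*, *Lhx5* and *St18* (0.88, 0.87 and 0.82), *Samd5* had *Fzd1*, *Dmrta2* and *Plat* (0.81, 0.81 and 0.77), and *Enc1* had *Sdc3*, *Fmnl2* and *Prnp* (0.88, 0.86 and 0.86). Among the 8 genes themselves *Fam171b* and *Cntnap2* were most alike (0.85) and *Adamts18* and *Enc1* least (-0.08).

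Markers of other cell types also differed between the libraries within naïve-like cells. The summed level of 7 ciliary margin markers was 354 CPM in control and 659.7 CPM in DKO cells, with 6 of 7 higher in DKO. That of 8 pigment epithelium markers was 15.7 and 90.9 CPM, with 8 of 8 higher. Only 2 of these 8 were over 10 CPM in either library, and 1 was at 0 in control cells. The 8 naïve progenitor markers were at 4809.7 and 3512 CPM, and 8 lens markers at 193 and 98.9 CPM. Red blood markers, taken as another gauge of free RNA, were at 4864 and 3925 CPM. In DKO cells with a *Fabp7* UMI the naïve markers were at 1848 CPM, against 4193 CPM without. Red blood markers went the other way in this split, at 4773 CPM with and 2461 CPM without a *Fabp7* UMI. Red blood markers were also higher in DKO cells without a *Six3* UMI than in those with such a UMI. The part of these differences in the levels of the 8 genes was not tested.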

How the data were processed

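The authors mapped reads of 10x Genomics 3' libraries to mm10 with Cell Ranger 3.1.0 and deposited, per library, raw UMI counts per gene and cell. Kept were cells in which over 200 but under 6000 genes were detected and mitochondrial UMIs made up less than 20%. Scrublet (scanpy 1.11.5) scored doublets at a threshold of 0.225; they were kept and left out as an alternative. Libraries were integrated with Seurat 5.3.0 in R 4.3.3 (20 dimensions, resolution 0.5), with the 8 genes, *Fabp7*, *Six3*, *Six6* other genes the study names and hemoglobin and sex-linked genes left out of the 2000 variable genes (1925 used).

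The 8 genes, the marker lists and the tests were chosen with earlier results of these data known. A cluster took the class with the highest mean marker ratio among those with at least 75% of markers above their level in other cells, unless another class had more markers among its 10 leading genes or came close to it, its UMIs were low, or over 20% of its cells were doublets. This rule went through 4 versions after the clusters, and the levels of these genes in them, had been seen; version 3 is used. It made cluster 18 photoreceptor-like and left cluster 2 unnamed. Version 4 differed by naming cluster 1 naïve-like; it was withdrawn because the levels of these genes in cluster 1 were known by then, and values for cluster 1 and for clusters 0, 1 and 5 together are given beside the others.

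Levels are summed UMIs per 1000000 (CPM) with Poisson intervals, ratios carry intervals from the binomial split of UMIs, and shares exact binomial intervals (95%), all for counting error only, worked out in pandas 2.3.3, scipy 1.17.1 and numpy 2.4.6 under Python 3.11.15 and checked on simulated data. Figures used matplotlib 3.10.9. Ratios needed over 3 UMIs in either group, and splits 20 cells on each side. Splits used cells thinned to 2000 UMIs. Named genes are the 8, *Fabp7*, *Six3*, *Six6*, relatives past the filter and past 2-fold, and the 3 genes most like each; genes outside this rule were named after their values were seen. Promoters came from RefSeq (GRCm38.p6) and gene coordinates from GENCODE vM21.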

Additional observations from a re-analysis of the deposited data

Results flagged for a closer look

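In 2 cases a gene of the set was higher in DKO in one cell type and lower in another, beyond counting error in both. *Samd5* had a log2 ratio of DKO over control of -0.84 in lens-like cluster 13, against 2.62 in naïve-like clusters 0 and 5. In lens-like cluster 14 it was 1.01 (0.06 to 1.96), so the lower value was not seen in both lens-like clusters. *Fam171b*, *Zfp503* and *Cntnap2* were higher in DKO in cluster 14 as well, and the part of free RNA there was not tested. *Enc1* had a ratio of -0.66 in amacrine- or horizontal-like cluster 15, against 0.86 in naïve-like cells. With 1 library per genotype, the difference between cell types was not tested in either case.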

How the results depend on the processing

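No paired analysis was possible because only 1 embryo stood for either genotype, and no library could be left out for the same reason. The median log2 ratio of the 8 genes in naïve-like cells, 1.61, moved beyond its counting interval in 3 of 9 other settings: to 1.32 with the libraries merged without integration, to 0.92 with the class taken from marker UMIs per cell, and to 0.45 on the scale of log2 of the mean count per 10000 plus 1, where the neurogenic-like median was 0.25. Merging leaves a *Fabp7*-led DKO cluster outside the class, and adding it, also after seeing the data, gave 1.5. The share of genes over 2-fold higher was 0.521% when merged, 2.33% at 1.5-fold, 3.62% with at least 20 UMIs in either library and 7.14% with at least 1 UMI in both. The median for cells with over without a *Fabp7* UMI was 0.78 in cluster 1 alone, an alternative chosen after seeing the data, and ran from 0.20 with cells not thinned to 0.61 at resolution 1 over the other settings. The median for cells without over with *Six3* was 0.21 for whole low-*Six3* subclusters. Clusters 0, 1 and 5 together, also chosen after seeing the data, gave 1.63, 7 genes over 2-fold, 0.59 for *Fabp7* and 0.64 for *Six3*. These 7 genes include *Palmd*, which did not pass the filter. For single genes 87 of 88 alternative values in naïve-like cells and 72 of 72 in neurogenic-like cells were positive; the exception was *Palmd*, -0.07 with the class from marker UMIs. In size 30 of the 88 and 8 of the 72 moved beyond counting error. *Npas3* and *Cntnap2* fell under 2-fold in naïve-like cells, to 0.50 and 0.54 when merged and to 0.76 and 0.60 with the class from marker UMIs. Merging left 5 of the 8 genes over 2-fold in place of 7, passing the filter or not. Both counts include *Palmd*, which was hardly detected in these cells. The cause of these shifts was not tested.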
